A study of Drosophila melanogaster with 6 samples.

Results

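The Bearded complex is a group of Notch pathway genes on chromosome arm 3L of Drosophila melanogaster, and binding of Suppressor of Hairless, Su(H), across it is described here. All peaks were taken that lay wholly within 3L 14955000 to 14980000 (FlyBase release 5), the stretch given as the location of the complex. This position was fixed by coordinates and not by any peak value. The window held 5 of the 434 peaks on 3L, and of the 4403 peaks in the list. The run they form had already been seen as one of the highest-scoring on the arms before the window was set, so its standing in the list is a description.

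Chromatin from Drosophila melanogaster embryos was precipitated with a rabbit polyclonal antibody to amino acids 259 to 594 of Su(H) and sequenced (ChIP-seq), giving 3 Su(H) ChIP libraries, beside 3 input DNA libraries. Both groups came from the same strain, Y cn bw sp, which carried y[1] with oc[R3.2] in its first block of alleles. The second block joined Gr22b[1] and Gr22d[1] to cn[1], then CG33964[R4.2], with bw[1] and also sp[1]. The last block had LysC[1] and lab[R4.2], further MstProx[1], and both GstD5[1] and Rh6[1]. The stage was labelled Embryo 0-8 with no unit, while the protocol names egg laying of 8 to 16 hours, and the sex was unknown. Whole embryos were used, so the values do not separate cell types. The files hold 1 peak list for the series, and it names no library. No library has a value of its own, and so no replicate error, no read depth and no test of a difference can be given. Each peak has a width and a score from the peak caller MACS. The score is the authors' own and its scale is not stated, so it ranks peaks within the list. Sums, shares and ratios of scores given below describe the listed numbers and are not amounts of binding. Weak and strong refer to this score only.

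Notch signalling tells neighbouring cells apart. When Notch is activated, its intracellular part joins Su(H) on DNA and target genes are transcribed, while without it Su(H) works with co-repressors to keep them off. Bearded family genes encode small proteins that bind the ubiquitin ligase Neuralized and block its action on the Notch ligand Delta. In the early embryo these genes are transcribed in the ectoderm and are kept off in the presumptive mesoderm by the repressor Snail.

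Of the family, 4 named genes were found on 3L in a gene table of Release 6. BobB, a further gene of the complex, was looked up and not found there. Brd (Bearded) is the founding member, known from dominant alleles that give extra bristles. Tom (Twin of m4) inhibits Neuralized when overproduced. Ocho and BobA (short for Brother of Bearded A) encode related small proteins. Along the arm their order was BobA, Tom, Brd and Ocho. Tom, Brd and Ocho were direct neighbours in the table, with 1 long non-coding RNA gene, lncRNA:CR45978, between BobA and Tom. Ocho was followed by lncRNA:marge and CG3349. Coordinates of the gene table were not carried over to release 5. It was therefore not determined which peak lies at which of these genes, and peaks are named by position. In the Release 6 table the stretch from BobA to Ocho is longer than the 25 kb window, so unless the releases differ in length here the window cannot hold all 4 genes in full, and whether it reaches BobA was not determined.

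The 5 peaks fell into a weak group and a strong pair, in that order along the arm. The weak group opened with 3L 14960789 to 14961473, which was 685 bp wide with a score of 20.12. It was followed by 14962702 to 14962970, the narrowest and lowest of the 5, with 269 bp and a score of 16.41. The last of the weak group, 14965069 to 14965768, was 700 bp wide and scored 26.13. The scores of these 3 thus ran from 16.41 to 26.13, and their summed score was 62.7.

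The strong pair lay to the right of them, toward higher coordinates. Its first peak, 14967465 to 14969078, was 1614 bp wide with a score of 289.92, the highest of the window. Its other peak, 14970477 to 14972917, was 2441 bp wide with a score of 138.38. The pair therefore differed in opposite ways: the higher-scoring peak was the narrower one, and its score was 2.10 times that of its neighbour. The pair carried 87.2% of the window's summed score of 490.96, the highest peak alone 59.1%. Between the pair and the strongest of the weak group, the score differed 5.30-fold for the lower of the pair and 11.1-fold for the higher.

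**Figure D1:**
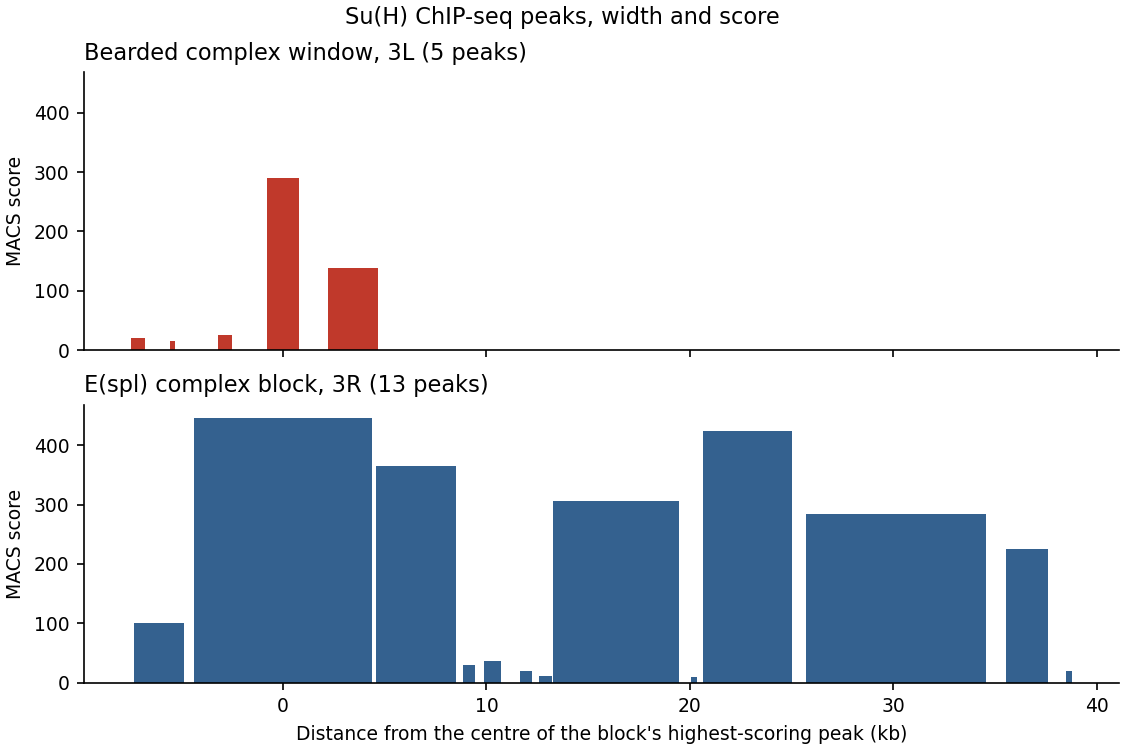
Peaks of the Bearded complex window on 3L (top) and of the E(spl) complex block on 3R (bottom), each drawn as a box from its first to its last base, with the MACS score as height and the distance from the centre of the block's highest peak in kb on the x axis. The Bearded window shows 3 low boxes and then 2 high ones (289.92 and 138.38) with open stretches between all of them, whereas the 13 boxes on 3R lie nearly edge to edge.

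From the first to the last peak the run measured 12129 bp, of which peaks covered 5709 bp or 47.1%. The gaps between neighbours, from edge to edge, were 1228, 2098, 1696 and 1398 bp, in order along the arm. No gap stood out from the others in length, and the weak and the strong members were spaced alike. Peaks covered 74.4% of the 5453 bp that the strong pair spans, and 33.2% of the 4980 bp that the weak group spans. On 3L as a whole, 114 of the 433 gaps between neighbouring peaks were 5 kb or less, with a median of 1175.5 bp, and 53 of these were 1 kb or less. None of the 4 gaps of the run was that short.

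Both edges of the window fell in stretches without peaks. The nearest peak on the left, 14953650 to 14953982, lay just outside the window, 6806 bp before the run. It was 333 bp wide with a score of 18.85, which is above the lowest member. On the right the next peak, 15011478 to 15011729, came only after 38560 bp, and it scored 13.32. A gap at least as long was not rare on 3L, where 36.3% of gaps reached that length.

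Among the 434 peaks of 3L, the pair ranked at the top of the list by score. The 289.92 peak had rank 2, behind a peak at 6736704 to 6737365 that scored 355.71 and whose nearest neighbour lay 8126 bp away. Rank 3 went to 699036 to 699857, with a score of 140.04. The other member of the pair followed at rank 4 with 138.38, and below it came 10849216 to 10850385 with 134.06. The nearest scores to 289.92 on 3L were thus 355.71 above and 140.04 below, whereas the 138.38 peak had close neighbours in score on both sides. Only 6 peaks on 3L scored above 100, and of the 10 highest only this pair lay within 5 kb of one another. Among the 2074 peaks of the 6 chromosome arms the pair took ranks 7 and 15.

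The weak group stood lower but not at the bottom. The 26.13 peak shared rank 53 with 1 other peak, the 20.12 peak held rank 89, and the 16.41 peak shared rank 152 with 2 others. The median score of 3L peaks was 13.47 and the upper quartile 18.63, so all 5 members lay above the median and 4 above the upper quartile. Peaks next in rank to the weak members were close in score, with 25.84 and 26.14 around the 26.13 peak, 19.95 and 20.38 around the 20.12 peak, and 16.18 and 16.42 around the 16.41 peak. By score, many other 3L peaks thus lay close to each of the weak group.

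By width the order changed. The 2441 bp peak had rank 2 on 3L, where the widest peak measured 2518 bp, and it was 1 of 5 peaks on 3L wider than 2 kb. The 1614 bp peak had rank 9. Widths of 700 and 685 bp took ranks 62 and 67, at 2.01 and 1.96 times the 3L median of 349 bp. The 269 bp peak lay below that median, at 0.771 of it. Among the 10 highest-scoring peaks of 3L the pair were the widest, as the other 8 measured between 478 and 1297 bp. The 1 peak that outscored both was 662 bp wide. Of the other 3L peaks with a score within 1.2-fold of 138.38, all 3 were narrower, from 822 to 1170 bp, and no other peak came within 1.2-fold of 289.92. By the same measure 20 of 33 peaks of like score were narrower than the 26.13 peak, 62 of 86 than the 20.12 peak and 23 of 122 than the 16.41 peak.

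**Figure D2:**
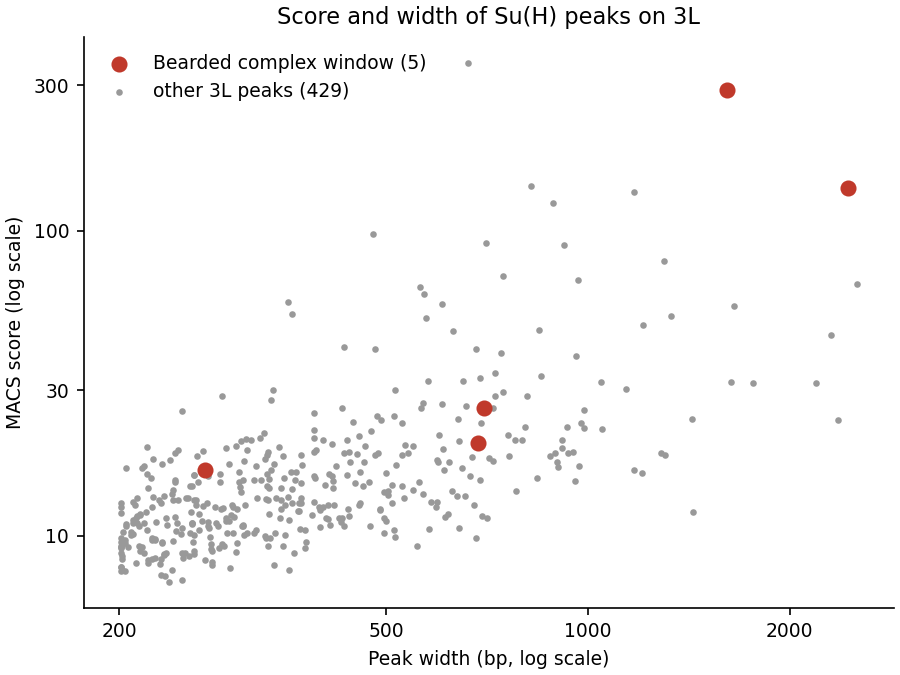
Width in bp (x axis) and MACS score (y axis) of the 434 peaks on 3L, both on log scales, with the 5 peaks of the Bearded complex window as large points. The strong pair lies at the upper right, where few other peaks are, and the 3 weak peaks lie within the cloud of 3L peaks.

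Chaining of neighbours across gaps of up to 5 kb gave 73 runs of 2 or more peaks on 3L, of which 5 had at least 5 peaks. The Bearded run had the highest summed score, 490.96, against 209.42 for the next, 22393053 to 22401520. It was also the longest, with 12129 bp against 11649 bp for the next, and had the most bases covered, with 5709 bp against 4787 bp. The 4787 bp belonged to a denser run at 5453657 to 5459450, in which 7 peaks covered 82.6% of their stretch with no score above 52.33. By covered share the Bearded run had rank 33 of the 73. Without the 289.92 peak the sum was 201.04, and the run took rank 2 while all other runs kept their highest peaks. The run then above it, with 209.42, had a highest peak of 97.35. The 5 members made up 1.15% of the peaks on 3L, 2.85% of the bases under peaks and 5.76% of the summed score. Runs of 2 or more peaks numbered 377 on the 6 arms. Among them the Bearded run ranked 3 by summed score and 4 by covered bases. It ranked 14 by length, 24 by number of peaks and 178 by covered share.

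**Figure D3:**
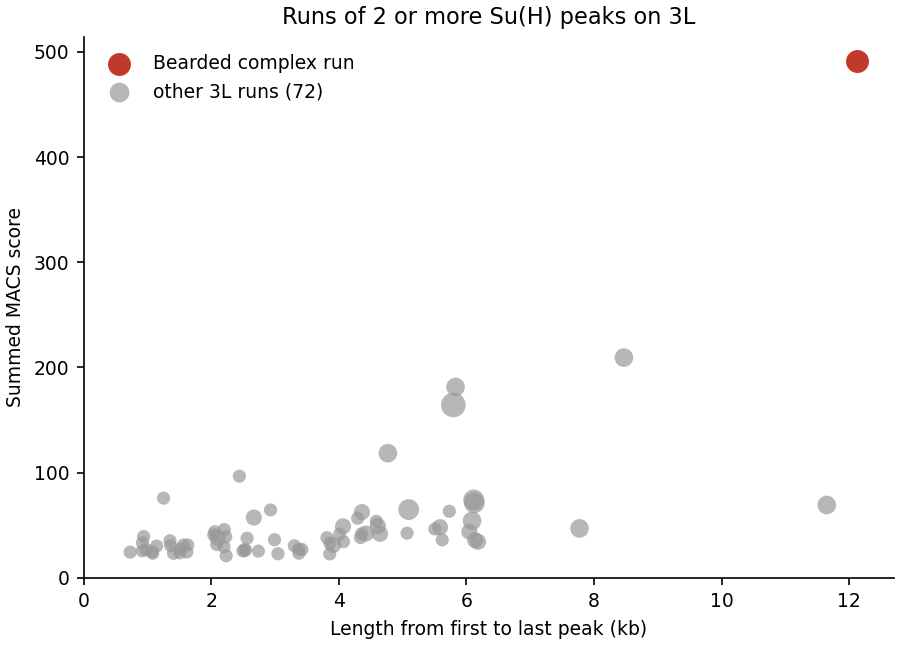
Length in kb from the first to the last peak (x axis) and summed MACS score (y axis) of the 73 runs of 2 or more peaks on 3L, with point area in proportion to the number of peaks. The Bearded run stands apart at the upper right, with a sum of 490.96, while the next highest sum is 209.42.

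Windows of 25 kb, moved along 3L by 5 kb, gave a ranking that does not depend on chaining. The Bearded window was set against the 1381 windows with a peak that did not overlap it, and it lay above all of them by summed score and by covered bases. Of the windows that did overlap it, 1 was higher still: 14950000 to 14975000 also took in the peak just left of the window, and with 6 peaks it reached a sum of 509.81 and 6042 covered bases. The highest sum away from the complex was that of 6730000 to 6755000, with 423.71, which holds the single highest peak of the arm. By number of peaks the Bearded window had rank 10 against those that did not overlap it, of which 11 were tied at 5 peaks. Those with more peaks formed 3 separate stretches, and the fullest held 8 peaks. Spread evenly from the first to the last peak, 3L would hold 0.446 peaks per 25 kb. Its peaks were not spread evenly, as 114 of the 433 gaps were 5 kb or less while the median gap was 23194 bp. The even value is therefore not what a window with peaks would be likely to hold. Without the 289.92 peak, 2 separate stretches that did not overlap the Bearded window, and kept all their peaks, had windows with a higher sum.

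The E(spl) complex on 3R was set beside it as the other Notch target complex with many peaks. It comprises genes for basic helix-loop-helix repressors and further Bearded family members, which places genes of the family in both stretches. In the gene table, 4 Bearded family genes (E(spl)malpha-BFM, E(spl)m2-BFM, E(spl)m4-BFM and E(spl)m6-BFM) and 7 repressor genes were found on 3R. The 3R stretch, 21820000 to 21870000, held 13 peaks. These are 2 single loci of 1 list, so the differences have no error and were not tested.

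The Bearded run was shorter, sparser and lower in score than the E(spl) run. It spanned 12.1 kb with 47.1% covered, against 46.1 kb with 86.5% covered on 3R. Peaks were 269 to 2441 bp wide in the Bearded window (median 700 bp), and 265 to 8811 bp on 3R (median 2085 bp). Scores ran from 16.41 to 289.92 with a median of 26.13 in the Bearded window, and from 9.83 to 445.63 with a median of 100.73 on 3R. On 3R, 4 peaks outscored the highest Bearded peak, with 445.63, 423.21, 364.86 and 305.32, and the lowest peak there, 21849063 to 21849335, scored 9.83.

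Much of the contrast lay in how many strong peaks there were. The Bearded window had 2 peaks above 100, and the 3R stretch had 7. All 7 on 3R were wider than 2 kb (2085 to 8811 bp), while the 2 strong Bearded peaks measured 1614 and 2441 bp. The 3 Bearded peaks below 40 were 269 to 700 bp wide and scored 16.41 to 26.13, and the 6 such peaks on 3R were 265 to 829 bp wide and scored 9.83 to 36.86. Per kb of run, the summed score was 40.5 in the Bearded run and 49.4 in the E(spl) run, a ratio of 0.82. The ratio of the sums themselves was 0.216. A sum per kb depends on how finely a stretch is split into peaks. When peaks were joined across gaps of up to 1 kb, keeping the highest score, the order per kb reversed. The sums were then 490.96 over 12.1 kb in the Bearded run and 670.57 over 46.1 kb on 3R.

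Gap lengths did not overlap between the 2 runs, but gaps of either length also occurred elsewhere on 3L. Most gaps there were longer, with a median of 23194 bp over all 433. Of the 114 gaps of up to 5 kb there, 53 were 1 kb or less. Another 55, which include gaps of the Bearded run itself, were longer than the shortest Bearded gap, and 35 of these were longer than the longest. No such share is given here for 3R. The 4 gaps of the Bearded run were 1228 to 2098 bp long (median 1547 bp), and the 12 gaps of the E(spl) run were 51 to 1006 bp (median 449.5 bp). Total uncovered length was nonetheless close, at 6420 bp in the Bearded run and 6209 bp in the E(spl) run. Joining peaks across gaps of up to 1 kb left all 5 Bearded peaks separate and 2 peaks on 3R. With gaps of up to 1.5 kb joined, 3 Bearded peaks were left and 1 on 3R, and the Bearded peaks became 1 when gaps of up to 2.5 kb were joined.

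**Figure D4:**
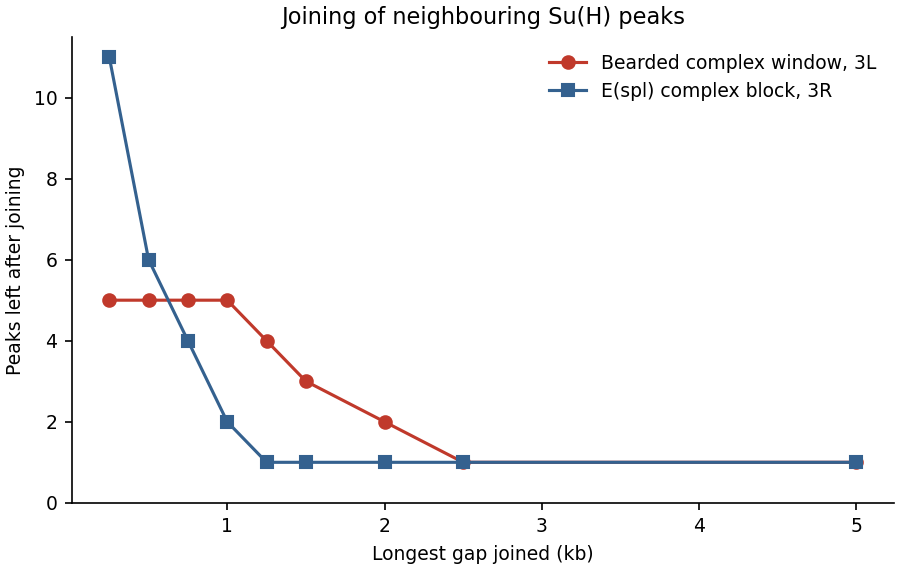
Number of peaks left (y axis) when neighbours across gaps of up to the length on the x axis (kb) are joined, for the Bearded complex window (circles) and the E(spl) complex block (squares). The Bearded peaks stay at 5 up to 1 kb and reach 1 at 2.5 kb, while the E(spl) peaks are down to 2 at 1 kb.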

How the data were processed

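Embryonic Su(H) ChIP-seq was represented by 1 deposited peak list from a series of 3 Su(H) ChIP and 3 input DNA libraries. Positions refer to release 5 of the FlyBase genome, per the file headers, and MACS stands in the column for the source. Tools listed in the submitters' processing notes were CASAVA (1.7.0.2, 1.7.0.3), MACS2 and BWA, with BDGP5 as the build, and no role or order is given for them. Each peak carries a score that the authors deposited without its scale. How peaks were thresholded and whether libraries were pooled is not given in the sources used here. A different threshold would change the widths, gaps and number of peaks.

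Peaks wholly inside the window were kept, positions counted from 1, and gaps measured edge to edge. Ranks give ties the better place. Runs chain gaps of up to 5 kb. Chaining, joining and window counts were tested on simulated peaks. The members, lists and measures were chosen with earlier results of these data known. Named items were all peaks of the window, their neighbours in rank and the genes of both complexes. Of 18 symbols looked up, 16 were found in the Release 6 table, and BobB and E(spl)m1 were not. The gene ocm, found on 2R, was left out as no member of the family. Sequences were not used here, so the planned promoter motif and protein comparisons were not run. Exact 95% binomial intervals cover counting error only. Alternatives were wider windows, joining, score cut-offs, other sets for ranking and other measures. Python 3.11.15 with pandas 2.3.3 and scipy 1.17.1 was used.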

Additional observations from a re-analysis of the deposited data

How the results depend on the processing

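The window held 8 peaks when widened by 25 kb on each side. In the 20% of the list with the highest score it held 2, the 26.13 peak falling just below the limit of 26.42. It kept 5 when peaks were chained across gaps of up to 5 kb, when they were joined across 1 kb, and in the upper 50%. As rank over the number of peaks, with ties at the better place, the 20.12, 16.41 and 26.13 peaks stood at 20.5%, 35.0% and 12.2% on 3L, and at 33.4%, 48.0% and 20.3% in the whole list. By width the 20.12, 16.41 and 289.92 peaks stood at 15.4%, 70.3% and 2.07%. Among the 6 arms, which include 3L, the 20.12, 16.41 and 26.13 peaks stood at 18.5%, 31.9% and 10.9% by score. The arm shares of all 5 peaks lay within the exact 95% binomial intervals of those on 3L. The whole-list shares of the weak group lay outside these intervals, and those of the strong pair inside. Peaks of 1 list are not replicates, so the intervals do not test a difference. Over the fixed window the covered share was 22.8%. The ratio of Bearded to E(spl) for the summed score was 0.216. It was 0.651 for the highest single score, 0.474 for the width-weighted mean score, 0.732 after joining across 1 kb, and 0.11 without the highest peak of each, a choice made after the data were seen. All of these ratios stayed below 1, but the summed score per kb of run did not do so after joining. Joined peaks carried their highest score, so joining lowered the E(spl) sum to 670.57 over 2 peaks and left the Bearded sum as it was. The ratio of covered shares was 0.544, and 0.286 over the fixed windows. Among 25 kb windows that did not overlap it, the Bearded one ranked 10 by number of peaks and 6 by highest score (those above it all hold the 355.71 peak of 3L). Without its highest peak, and with other windows keeping theirs, it ranked 9 by summed score, also a later choice. The motif alternative was not run. Leaving out a library was not possible. No paired analysis was possible because peaks carry no replicate. Read depth is unknown, which limits what a gap between peaks can show.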
